A study of Mus musculus with 8 samples.

Results

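Cytochrome P450 enzymes are heme proteins that insert 1 atom of oxygen into drugs, fatty acids, sterols, steroids, retinoids and vitamin D. The P450 genes described here are the mouse genes whose symbol is Cyp followed by a family number, a subfamily letter and a member number, as named through the RefSeq accession of their array probe. Of 95 such symbols in the RefSeq table, 76 had a probe on the array, and 55 of these were well above background on every array of 1 group or more. These 55 are the measured P450 genes, out of 20729 genes tested in all, and each is represented by its brightest probe. The choice used detection in at least 1 group, so a gene could enter through the group in which it was high.

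The samples were left kidneys taken from 16-week-old male mice, with 4 groups of 2 and 1 single-colour array for each of the 8 samples. WT normal kidneys were from wild-type mice and were harvested without clamping. KD normal kidneys were from mice with a Keap1 knockdown, also unclamped. WT IRI and KD IRI kidneys, of the same 2 genotypes, underwent ischemia-reperfusion injury: the left renal vein and artery were clamped for 45 min, and the kidney was taken at day 1. The right kidney stayed unclamped, so the injured mice kept 1 kidney that had not been clamped. The labels give neither the knockdown allele and the cells it acts in, nor the number of animals behind an array. KEAP1 is the adaptor that marks the transcription factor NRF2 for degradation, and NRF2 drives detoxification genes.

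In the kidney, P450 genes are known mostly from the proximal tubule. Enzymes of families 2 and 4 there oxidise arachidonic acid to epoxides and hydroxylated fatty acids that act on vessels and sodium transport, and others handle sterols and drugs. The vitamin D pair is a renal speciality, since CYP27B1 makes the active hormone and CYP24A1 destroys it. Members of families 1 to 3 are also classical targets of receptors that sense foreign compounds, such as the aryl hydrocarbon receptor, which acts on family 1.

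Levels below are log2 of the processed signal of a probe over the 75th percentile of its array, so 0 is the 75th percentile and a level of -1 is a signal of 0.5 of it. Levels of different probes are not comparable with each other, because probes differ in how well they bind. Changes are differences of these levels with the standard error (SE) of limma for 2 arrays a group (n = 2); p-values are limma's, two-sided and adjusted by Benjamini-Hochberg over all genes tested, with a threshold of 0.05. "Rose", "fell" and "called" refer to genes past it. Between 62.1% and 67.8% of the spots of an array were well above background. Keap1 itself fell by 1.25 ± 0.12 without injury (adjusted p = 0.00419) and 1.39 ± 0.12 with it (adjusted p = 0.00577). Of 12 proximal tubule markers, all 12 were well above background on all arrays, as were 5 of 6 markers of the loop and distal tubule. The 2 slides each held replicate 1 or replicate 2 of every group. Each group had the same position on both slides, so position and group cannot be told apart.

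Several P450 genes lie in tandem arrays of close copies, and their sequences show how close. In the RefSeq table (GRCm38.p6) all 6 measured Cyp2d genes lie on chromosome 15 with other P450 genes and 1 further protein-coding gene among them, the 5 Cyp2j genes and the 3 Cyp4a genes lie on chromosome 4 with no protein-coding gene other than P450 genes among them, and the measured Cyp2a and Cyp2b genes lie on chromosome 7. Among the Cyp2a genes lie 4 protein-coding genes that are not P450 genes, and among the Cyp2b genes 5. Of the 55 genes, 43 had a promoter window in the RefSeq table. The upstream bases of Cyp2a4 (chr7:26306943-26307191, plus strand, build GRCm38.p6) and Cyp2a5 (chr7:26835089-26835337, plus strand) are shown because these genes are close copies. These bases do not show whether a probe for one gene holds signal of the other. They differ at 4 of 249 bases (98.4% identity), which are in capitals:
Cyp2a4: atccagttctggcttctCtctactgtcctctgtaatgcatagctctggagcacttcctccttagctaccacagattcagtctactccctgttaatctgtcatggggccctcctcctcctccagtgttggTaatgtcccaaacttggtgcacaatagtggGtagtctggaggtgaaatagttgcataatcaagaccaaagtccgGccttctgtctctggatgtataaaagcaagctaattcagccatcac
Cyp2a5: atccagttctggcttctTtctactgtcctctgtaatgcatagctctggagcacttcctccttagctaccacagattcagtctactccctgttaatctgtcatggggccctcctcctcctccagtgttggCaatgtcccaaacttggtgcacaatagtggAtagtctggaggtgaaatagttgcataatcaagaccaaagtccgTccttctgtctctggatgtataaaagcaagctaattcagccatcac

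The 250 bases before the starts of Cyp2b9 (chr7:26173159-26173408, plus strand) and Cyp2b13 (chr7:26061245-26061494, plus strand) differ at 2 positions (99.2% identity). They are shown because both genes stood far above the other arrays on 1 array of the uninjured knockdown, as described below. The 2 differing bases are in capitals:
Cyp2b9: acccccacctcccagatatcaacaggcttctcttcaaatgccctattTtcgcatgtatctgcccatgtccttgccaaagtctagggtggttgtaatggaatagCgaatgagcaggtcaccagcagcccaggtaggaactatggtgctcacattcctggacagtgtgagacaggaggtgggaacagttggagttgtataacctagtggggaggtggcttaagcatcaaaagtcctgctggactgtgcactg
Cyp2b13: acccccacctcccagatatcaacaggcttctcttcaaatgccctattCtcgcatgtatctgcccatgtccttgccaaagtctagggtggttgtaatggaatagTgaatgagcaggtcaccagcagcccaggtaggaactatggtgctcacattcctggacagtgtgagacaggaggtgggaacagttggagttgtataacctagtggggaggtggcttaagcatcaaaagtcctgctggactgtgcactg

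The window of Cyp1a1 (chr9:57697363-57697612, plus strand) is the third shown, because Cyp1a1 was the P450 gene called higher in the knockdown both without and with injury. It holds the core GCGTG of the xenobiotic response element, to which the aryl hydrocarbon receptor binds, in capitals:
Cyp1a1: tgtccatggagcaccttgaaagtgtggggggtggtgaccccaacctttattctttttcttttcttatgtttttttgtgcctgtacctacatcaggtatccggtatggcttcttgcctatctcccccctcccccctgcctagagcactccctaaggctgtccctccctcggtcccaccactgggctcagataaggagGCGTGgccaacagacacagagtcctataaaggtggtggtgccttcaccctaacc

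GCGTG, searched on both strands, was in 13 of 47 P450 windows (27.7%), which belong to 12 genes, and in 32.4% of all 32851 windows of the table. TGACNNNGC, the core of the antioxidant response element that NRF2 binds, was in 4 of 47 P450 windows (8.51%), those of Cyp2j6, Cyp4f14, Cyp4f18 and Cyp4f39, and in 12.4% of all windows. A match to these letters is a description of the window and not evidence of a working site.

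**Figure D1:**
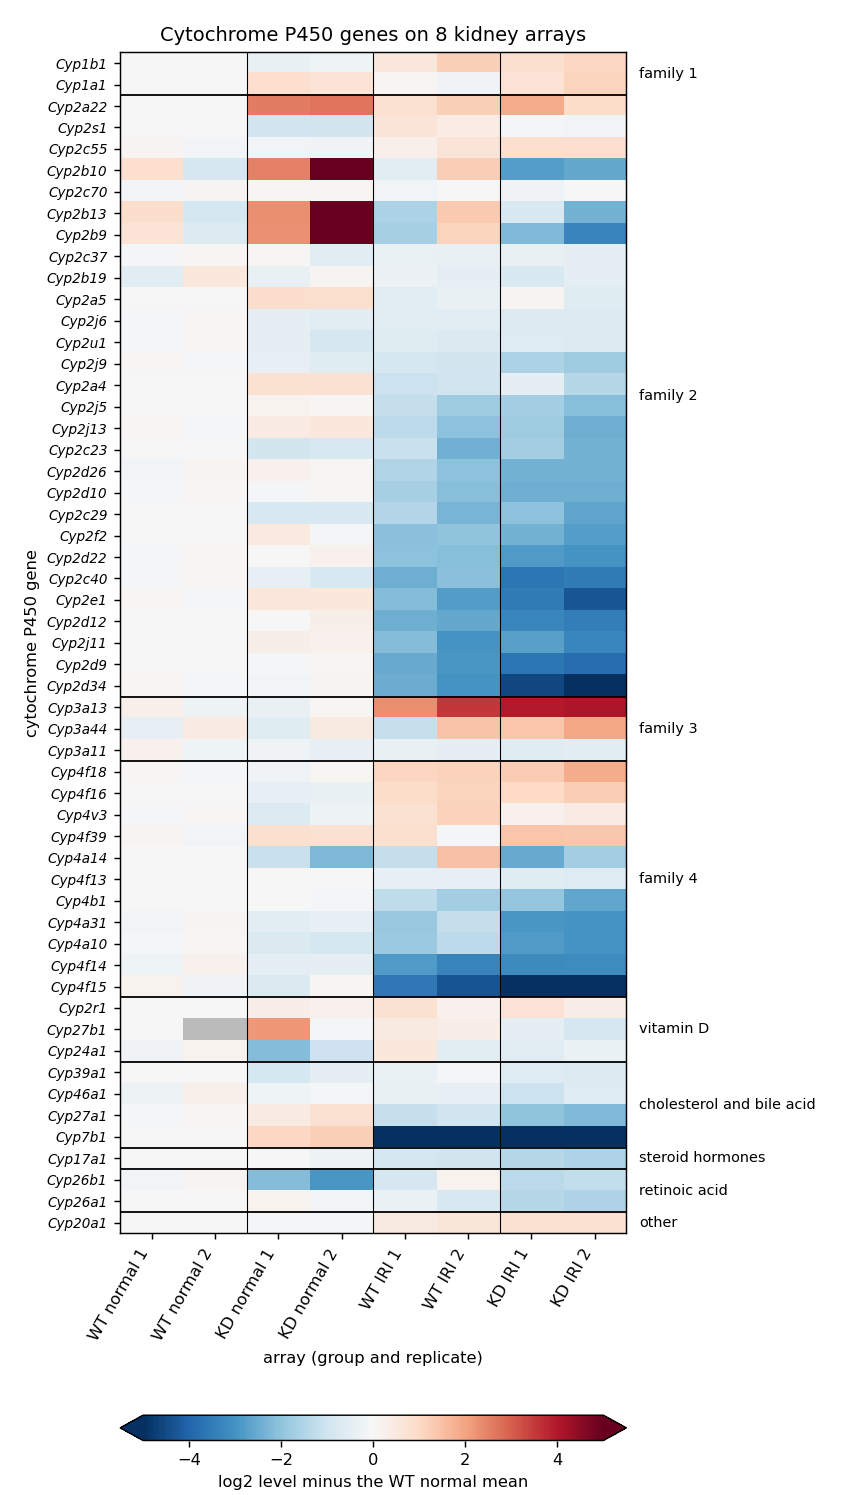
Level of the 55 measured P450 genes (rows, grouped by role) on the 8 arrays (columns), as log2 level minus the mean of WT normal; red is higher, blue is lower and the scale is cut at 5 in both directions. The injured arrays are mostly blue, with 27 genes called lower and 8 called higher in WT; the grey cell is Cyp27b1 on WT normal 2, whose spot was marked as an outlier and has no value.

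Injury of the wild-type kidney was compared with the uninjured wild-type kidney to ask how the P450 genes respond at day 1. More of them fell than rose: 27 of 55 fell, 8 rose and 20 did not pass. The largest fall was that of Cyp7b1, which hydroxylates oxysterols and was 42.1-fold lower, and the falls took in all 6 Cyp2d and all 5 Cyp2j genes and the ethanol-oxidising Cyp2e1. Cyp3a13 was at least 6.67-fold higher, and the other rises were between 0.52 (Cyp2s1) and 1.12 (Cyp4f18) on the log2 scale. The 35 genes called are 63.6% of the P450 genes, beside 45.9% of all genes tested. The genes that fell are 49.1% of the P450 genes beside 25.4% of all genes, and those that rose 14.5% beside 20.5%. The median change was -0.45 over the P450 genes and -0.084 over all genes, and within the slides the P450 median was -0.86 and -0.73. All 35 called genes moved the same way on both slides, which the call nearly requires.

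Proximal tubule markers fell in the same comparison, 11 of 12, with a median of -1.93. Their summed level, as signal over the 75th percentile, was between 806.976 and 826.946 in WT normal and between 184.015 and 290.318 in WT IRI. In a whole kidney, fewer cells of a type and less RNA per cell cannot be told apart, and the part of the tubule markers in the P450 changes was not tested. The 6 tubule injury markers all rose, by a fitted median of 8.07, and so did all 6 measured neutrophil markers, by a fitted median of 7.24. The neutrophil markers S100a8, Csf3r, Cxcr2, Retnlg and Mmp8 were well above background on no WT normal array. The same held for the injury marker Sprr2f, so these medians are not measured sizes. Csf3r, Cxcr2, Retnlg and Mmp8 passed the filter only through the injured groups, and their rise is in part set by this choice. Of the 6 loop and distal tubule markers all fell (median -1.91).

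Cyp7b1, a hydroxylase of oxysterols and of the steroid precursor DHEA, stood at 4.90 and 4.82 in uninjured WT, 5.91 and 6.06 in uninjured KD, -0.68 and -0.39 in injured WT, and -0.10 and -0.11 in injured KD. The 4 uninjured arrays were all far above the 4 injured ones, and the KD arrays were above the WT arrays on either side. The fall in WT was 5.40 ± 0.11 (95% interval -5.66 to -5.13; adjusted p = 3.42e-06). Cyp27a1, the mitochondrial sterol hydroxylase, fell by 1.08 ± 0.14 (adjusted p = 0.0012), while Cyp39a1 (-0.20, adjusted p = 0.317) and the cholesterol hydroxylase Cyp46a1 (-0.40, adjusted p = 0.187) did not pass. So 2 of the 4 measured sterol and bile acid genes fell. The classical liver enzymes of bile acid synthesis, Cyp7a1 and Cyp8b1, were well above background on no array.

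Family 2, with enzymes for drugs, solvents and fatty acids, gave 18 falls and 2 rises among its 28 measured genes, leaving out the vitamin D gene Cyp2r1. Cyp2d34 fell by 2.75 ± 0.22 (adjusted p = 0.000202) and Cyp2d9, a steroid hydroxylase in the mouse, by 2.72 ± 0.13 (adjusted p = 5.54e-05). For Cyp2d9 the level was 5.15 on each uninjured WT array, 5.09 and 5.20 in uninjured KD, 2.61 and 2.25 in injured WT, and 1.54 and 1.33 in injured KD. The uninjured genotypes overlapped, and injured KD lay below injured WT. The remaining Cyp2d genes fell by between 1.77 (Cyp2d26) and 2.50 (Cyp2d12), and the subfamily median was -2.30.

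Cyp2e1, which oxidises ethanol and small solvents, was at 5.80 and 5.60 in uninjured WT, 6.28 and 6.24 in uninjured KD, 3.55 and 2.90 in injured WT, and 2.20 and 1.42 in injured KD. Each group of arrays stood clear of the others. Its fall in WT was 2.47 ± 0.28, or 5.56-fold (adjusted p = 0.000735). Cyp2j5, an arachidonic acid epoxygenase of mouse kidney, was at 6.41 and 6.40 in uninjured WT, 6.57 and 6.47 in uninjured KD, 5.24 and 4.62 in injured WT, and 4.70 and 4.30 in injured KD. The injured arrays lay below the uninjured ones, and the genotypes overlapped after injury. Cyp2j5 fell by 1.48 ± 0.21 (adjusted p = 0.00157), and the other Cyp2j genes by between 0.56 (Cyp2j6) and 2.56 (Cyp2j11).

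Of the 6 measured Cyp2c genes, which in the mouse include other arachidonic acid epoxygenases, Cyp2c40, Cyp2c29 and Cyp2c23 fell by 2.26, 1.90 and 1.75. The other 3, with changes between -0.36 (Cyp2c37) and 0.45 (Cyp2c55), did not pass. Cyp2f2, known for bioactivating naphthalene in mouse lung, fell by 2.04, Cyp2a4 by 1.05 and Cyp2u1 by 0.68. Cyp2a22 and Cyp2s1 were the 2 rises in family 2, by 0.98 (adjusted p = 0.0308) and 0.52 (adjusted p = 0.00649). None of the 4 measured Cyp2b genes passed.

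Family 4, the fatty acid hydroxylases, had 11 measured genes, of which 6 fell and 3 rose. Cyp4f15 was at -1.95 and -2.34 in uninjured WT, -2.85 and -2.05 in uninjured KD, -5.71 and -6.45 in injured WT, and -7.74 and -7.76 in injured KD. It was not well above background on any injured array, and was at least 13.3-fold lower in WT IRI than in WT normal (adjusted p = 0.000325). Here, as in each bound given, the dim group was set to the lowest signal that was well above background on its arrays, or to the probe's own where higher. Cyp4f15 was among the measured genes only through the uninjured groups, so its fall with injury in either genotype is in part set by this choice. Cyp4f14, an omega-hydroxylase of leukotriene B4 in the mouse, fell 8.58-fold (adjusted p = 0.000135). The lipid hydroxylases Cyp4a10, Cyp4a31 and Cyp4b1 fell by 1.57, 1.55 and 1.50, and Cyp4f13 by 0.42. Cyp4b1 was at 7.88 and 7.87 in uninjured WT, 7.90 and 7.82 in uninjured KD, 6.60 and 6.15 in injured WT, and 5.94 and 5.26 in injured KD, so that the injured groups did not overlap with the uninjured ones or with each other.

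The rises in family 4 were Cyp4f18 (1.12 ± 0.20, adjusted p = 0.00413), Cyp4f16 (1.01 ± 0.11, adjusted p = 0.00068) and Cyp4v3 (0.95 ± 0.19, adjusted p = 0.00602). Cyp4f18 is the leukotriene B4 hydroxylase of mouse neutrophils, and the summed level of the 6 neutrophil markers was between 0.246 and 0.253 in WT normal and between 49.0 and 105.3 in WT IRI. Among these markers S100a9 alone was well above background on all arrays, and it had the highest level on each WT array. The part of neutrophils in the Cyp4f18 change was not tested. Cyp4a14, a fatty acid hydroxylase induced through PPARA, was at 1.75 and 1.82 in uninjured WT, 0.68 and -0.46 in uninjured KD, 0.61 and 3.24 in injured WT, and -0.71 and 0.03 in injured KD. The injured WT arrays lay on both sides of the uninjured WT ones, and the change of 0.14 had a 95% interval of -1.76 to 2.03.

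Cyp3a13, of the drug- and steroid-oxidising family 3, was at -4.98 and -5.50 in uninjured WT, -5.62 and -5.13 in uninjured KD, -2.92 and -1.71 in injured WT, and -1.27 and -1.21 in injured KD. All 4 injured arrays stood above all uninjured ones. It was not well above background on the WT normal arrays, and the bound of 6.67-fold compares with a fitted rise of 2.93 ± 0.40 (adjusted p = 0.00141). Cyp3a13 was among the measured genes only through the injured groups, so its rise with injury is in part set by this choice. Cyp3a11 (-0.43, adjusted p = 0.112) and Cyp3a44 (0.15, adjusted p = 0.899) did not pass. Cyp1b1, a family 1 enzyme of steroids and foreign compounds, was at 0.75 and 0.74 in uninjured WT, 0.39 and 0.51 in uninjured KD, 1.31 and 1.93 in injured WT, and 1.55 and 1.77 in injured KD. The injured arrays were all higher, and the rise was 0.87 ± 0.19 in WT (adjusted p = 0.00987). Cyp1a1 did not pass, at -0.04 with a 95% interval of -0.52 to 0.44 (adjusted p = 0.873). Cyp20a1, an orphan enzyme, rose by 0.53 ± 0.09 (adjusted p = 0.00368).

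None of the 3 vitamin D genes passed in any of the 5 comparisons. Cyp24a1, which inactivates vitamin D hormone, was at 2.95 and 3.30 in uninjured WT, 0.96 and 2.10 in uninjured KD, 3.66 and 2.60 in injured WT, and 2.57 and 2.77 in injured KD. Its change with injury in WT was 0.01, with a 95% interval of -1.02 to 1.05. Cyp27b1, which makes the hormone, was at -2.68 on WT normal 1, -0.51 and -2.73 in uninjured KD, -2.25 and -2.34 in injured WT, and -3.15 and -3.52 in injured KD; its spot on WT normal 2 was marked as an outlier and the fit used the other 7 arrays. KD normal 1 was the array with the lowest Cyp24a1 and the highest Cyp27b1. The change of Cyp27b1 in WT was 0.39, with an interval of -1.62 to 2.39, and that of the liver 25-hydroxylase gene Cyp2r1 was 0.47 (adjusted p = 0.118).

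Of the hormone and retinoid genes, Cyp17a1, an enzyme of androgen synthesis, fell by 0.91 ± 0.10 (adjusted p = 0.000714). Cyp26a1 and Cyp26b1, which break down retinoic acid, were at -0.57 (adjusted p = 0.0886) and -0.34 (adjusted p = 0.472). Cyp17a1 is an adrenal and gonadal gene in many species. The adrenal markers Th, Dbh and Chga were well above background on both arrays of no group, and of 8 measured adrenal markers 4 fell and 1 rose. The summed level of the 8 was between 2.79 and 2.80 in WT normal and between 1.71 and 2.16 in WT IRI, and their part in the change of Cyp17a1 was not tested.

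Leaving out single arrays kept the count of P450 genes called between 30 and 36. Over all other settings 5 of 8 rises and 20 of 27 falls kept their call. Those of Cyp1b1 (adjusted p up to 0.0510), Cyp2c23 (0.0534), Cyp2a22 (0.141), Cyp2a4 (0.119) and Cyp2u1 (0.839) did not hold without WT normal 1, nor without WT normal 2. With normexp background correction Cyp2c29, Cyp2c40, Cyp2f2, Cyp2s1 and Cyp4f15 did not pass and Cyp2u1 changed sign.

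**Figure D2:**
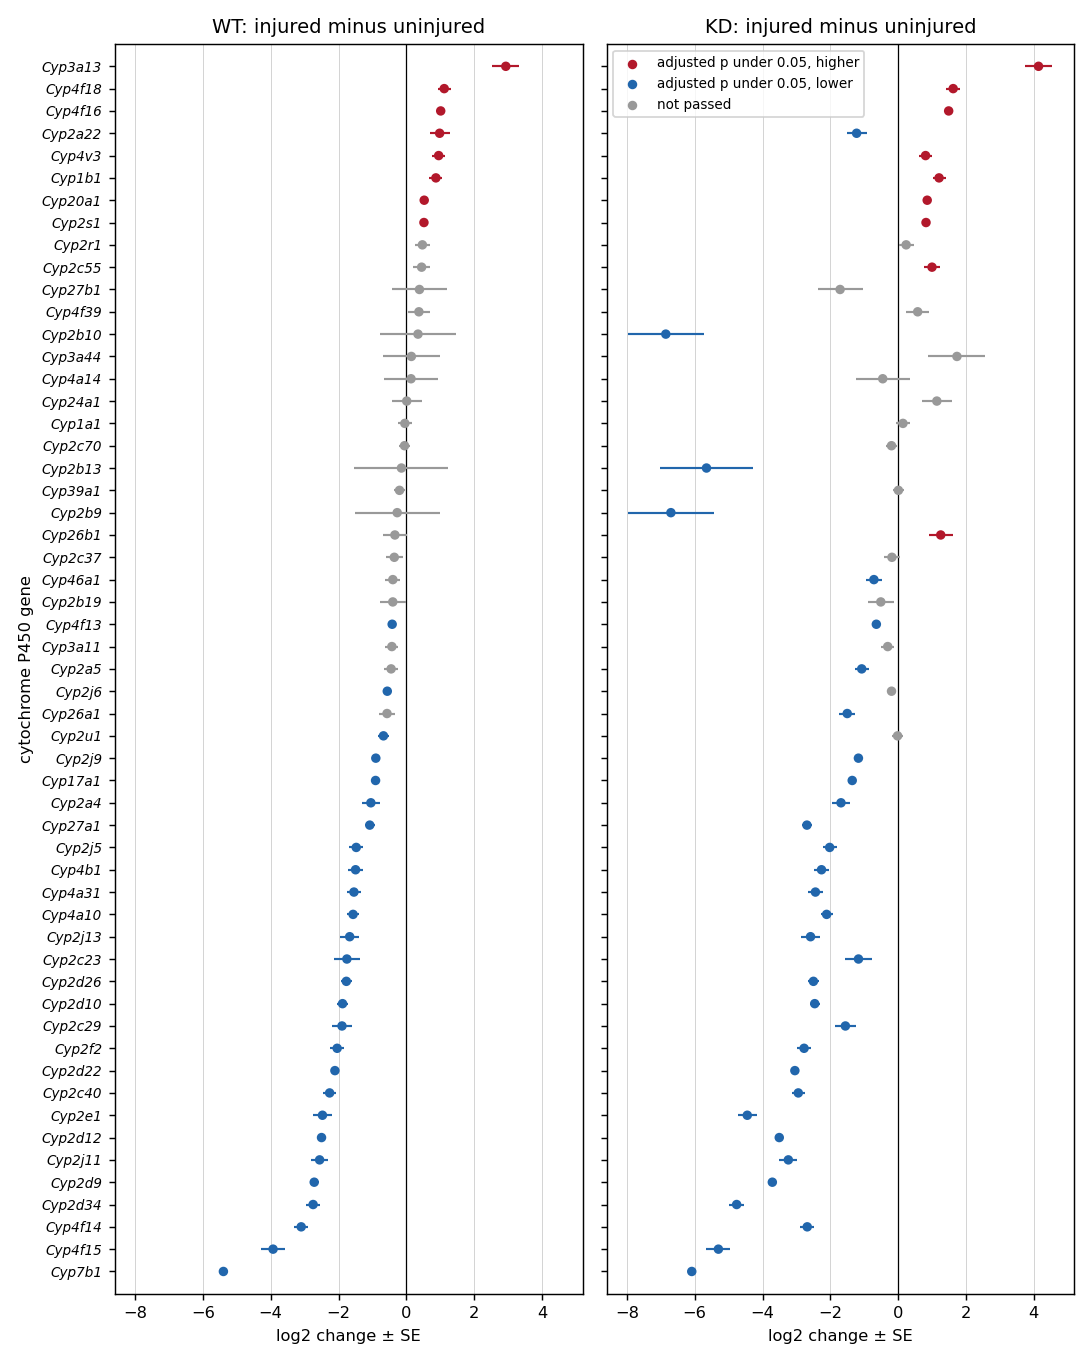
Change with injury of each of the 55 measured P450 genes in WT (left) and KD (right), as log2 change with SE as bars, ordered by the change in WT; red and blue mark genes past the threshold. The fitted falls extend to 5.40 in WT (Cyp7b1) and to 6.85 in KD (Cyp2b10, not well above background after injury), and Cyp3a13 tops both panels at 2.93 and 4.14.

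The same injury in the knockdown was compared with the uninjured knockdown. There 32 P450 genes fell, 9 rose and 14 did not pass, which is 74.5% called beside 59.4% of all genes. The falls are 58.2% of the P450 genes beside 32.1% of all genes, and the rises 16.4% beside 27.3%. The median change was -1.22 over the P450 genes, with -1.20 and -1.40 within the slides, and -0.085 over all genes. All 12 proximal tubule markers fell (median -2.40). These arrays are other than those of the wild-type comparison, but both comparisons use the same estimate of each gene's spread, so their calls are not independent. The share called in both was not computed over all genes. Of the falls, 25 were called in both genotypes, which is 92.6% of the 27 in WT and 78.1% of the 32 in KD. Of the rises, 7 were called in both, 87.5% of the 8 in WT and 77.8% of the 9 in KD, and Cyp2a22 was called in opposite directions.

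In the knockdown, Cyp7b1 was 68.0-fold lower after injury (-6.09 ± 0.11, adjusted p = 2.01e-06). Cyp2d34 fell by 4.76 ± 0.22 and Cyp2e1 by 4.45 ± 0.28, and all 6 Cyp2d genes and 4 of 5 Cyp2j genes fell. Cyp4f15 was at least 10.4-fold lower. Cyp27a1 was at 0.11 and 0.20 in uninjured WT, 0.57 and 0.90 in uninjured KD, -1.01 and -0.85 in injured WT, and -1.85 and -2.07 in injured KD, and its fall in KD was 2.69 ± 0.14 (adjusted p = 2.51e-05). The KD arrays were the highest before injury and the lowest after it. The family 4 falls were those called in WT, with Cyp4b1 at -2.26, Cyp4a31 at -2.44 and Cyp4a10 at -2.11. Falls called in KD and not in WT included Cyp26a1 (-1.50 ± 0.24, adjusted p = 0.00151), Cyp2a5 (-1.07 ± 0.21, adjusted p = 0.0043) and Cyp46a1 (-0.71, adjusted p = 0.0291). The difference between the genotypes did not pass in these 3 (adjusted p = 0.142, 0.244 and 0.580).

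The rises in the knockdown were led by Cyp3a13 (4.14 ± 0.40, adjusted p = 0.000173), followed by Cyp4f18 (1.62), Cyp4f16 (1.49), Cyp26b1 (1.26), Cyp1b1 (1.21) and Cyp2c55, which was at least 1.65-fold higher. The others were Cyp20a1 (0.86), Cyp2s1 (0.82) and Cyp4v3 (0.81). Cyp3a13 and Cyp2c55 were among the measured genes only through the injured groups, so their rises are in part set by this choice. Cyp24a1 (1.14, adjusted p = 0.0576) and Cyp27b1 (-1.71, adjusted p = 0.0682) did not pass. Leaving out single arrays gave between 36 and 43 P450 genes called. Over all other settings 28 of 32 falls and 6 of 9 rises kept their call; those of Cyp26b1, Cyp2c55 and Cyp4v3 among the rises did not hold without KD IRI 2, with adjusted p up to 0.106, 0.640 and 0.208 over the settings. With normexp correction Cyp2c55 was at -0.77, the opposite direction. Among the falls Cyp2c23, Cyp46a1, Cyp26a1 and Cyp2b13 reached 0.198, 0.213, 0.298 and 0.0688.

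The 3 largest fitted falls in the knockdown other than that of Cyp7b1 belonged to Cyp2b genes, and they rest in part on 1 array. Cyp2b10, the classical target of the receptor CAR, was at -4.43 and -6.11 in uninjured WT, -2.75 and 0.59 in uninjured KD, -5.82 and -4.04 in injured WT, and -8.03 and -7.84 in injured KD. Cyp2b9 was at -2.77 and -4.15, -1.17 and 2.13, -5.11 and -2.35, and -5.67 and -6.77 in the same order of groups, and Cyp2b13 at -3.87 and -5.59, -2.39 and 1.12, -6.33 and -3.42, and -5.50 and -7.08. KD normal 2 stood far above every other array in all 3 genes, and KD normal 1 was the next highest.

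After injury of the knockdown Cyp2b10 was at least 26.8-fold lower (adjusted p = 0.00187), and Cyp2b9 and Cyp2b13 fell by a fitted 6.70 ± 1.26 (adjusted p = 0.00338) and 5.65 ± 1.38 (adjusted p = 0.0109). Of the KD IRI arrays, Cyp2b10 was well above background on 0, and Cyp2b9 and Cyp2b13 on 1 of 2 each, so the fitted values are not exact sizes. Cyp2b10 and Cyp2b13 passed the filter on dim probes only through KD normal, the group in which they were high, and a fall from that group is in part set by this choice. Without KD normal 2 the fitted changes were -5.18 for Cyp2b10 (adjusted p = 0.00545), -5.05 for Cyp2b9 (0.0149) and -3.90 for Cyp2b13 (0.054). In KD normal against WT normal the 3 genes were at 4.19 (adjusted p = 0.0509), 3.94 (0.0793) and 4.09 (0.0915) and did not pass. The change of Cyp2b10 there was 1.68 on slide 1 and 6.70 on slide 2, and 2.52 without KD normal 2. The fourth gene of the subfamily, Cyp2b19, was at -0.11 (adjusted p = 0.878). Neutrophil markers summed to 0.738 on KD normal 1 and 6.18 on KD normal 2, and fat markers to 2.28 and 8.83, beside 10.9 and 2.49 on the WT normal arrays. Of the neutrophil markers S100a9 alone was well above background on all arrays. At -0.67 on KD normal 1 and 2.42 on KD normal 2 it had the highest level among them. The part of neutrophils or fat in the Cyp2b levels was not tested.

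**Figure D3:**
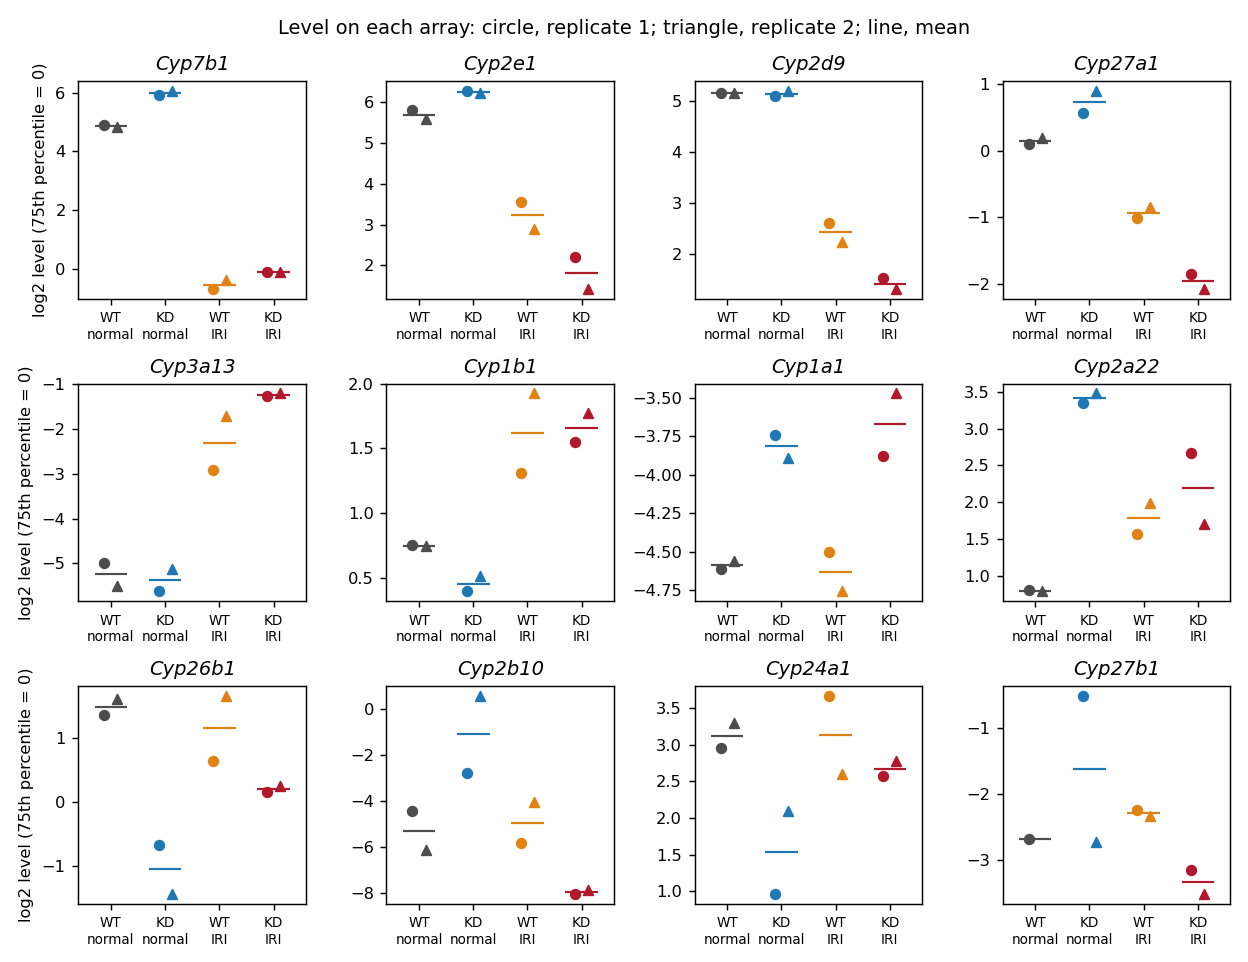
Level of 12 P450 genes on each of the 8 arrays (log2 signal over the 75th percentile of the array), circles for replicate 1, triangles for replicate 2 and lines for group means; each panel has its own axis. Cyp7b1 drops from between 4.82 and 6.06 to between -0.68 and -0.10 with injury, and Cyp2b10 on KD normal 2, at 0.59, stands above all other arrays.

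Whether the knockdown changed the injury response was tested as the interaction, the response of KD minus that of WT. In 9 P450 genes the response differed, and in all 9 it was more negative in KD. They are 16.4% of the P450 genes, beside 6.4% of all genes called in either direction, 2.71% in this direction and 3.69% in the other. The median interaction over the 55 genes was -0.45, with -0.32 and -0.34 within the slides, and -0.001 over all genes, and 35 of 55 genes (63.6%) were below 0 beside 50.1% of all genes.

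Cyp27a1 (-1.61 ± 0.20, adjusted p = 0.0181), Cyp2d34 (-2.01 ± 0.30, adjusted p = 0.0229) and Cyp2e1 (-1.97 ± 0.40, adjusted p = 0.0405) fell further in KD than in WT. So did Cyp2d12 (-1.004), Cyp2d9 (-0.99) and Cyp2d22 (-0.94), which makes 4 of 6 Cyp2d genes, and Cyp7b1 (-0.69 ± 0.16, adjusted p = 0.0497). Cyp2a22, which rose in WT and fell in KD, differed by -2.21 ± 0.41 (adjusted p = 0.0343). Cyp2b10 was called too (adjusted p = 0.0483; 0.0506 with the slide as a block and 0.0735 without KD normal 2), but it passed the filter only through KD normal, was well above background on 0 of 2 KD IRI arrays and on 1 of 2 in each WT group, and the size of its difference was not measured. The positive values did not pass, among them those of Cyp26b1 (1.59, adjusted p = 0.111) and Cyp3a13 (1.21, adjusted p = 0.232).

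None of the 9 calls held under every other setting, and no P450 gene passed without WT normal 1, without WT normal 2 or without KD IRI 2, although 16, 14 and 13 had an unadjusted limma p under 0.05. The count was 2 without KD normal 2 and 4 without KD IRI 1. On both slides the sign of all 9 was the same, which the call nearly requires. Of 12 proximal tubule markers 2 were called in the same direction, Slc5a12 at -1.78 and the fatty acid transporter gene Slc27a2 at -1.03, with a median of -0.51 over the list.

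The uninjured knockdown was compared with the uninjured wild type, which asks what lower Keap1 goes with before any injury. Of the 55 P450 genes 5 rose, 7 fell and 43 did not pass, or 21.8% called beside 14.9% of all genes. The rises are 9.09% of the P450 genes beside 6.28% of all genes, and the falls 12.7% beside 8.66%. The median change was -0.050, beside -0.027 over all genes. No proximal tubule marker was called (0 of 12, median 0.11), while 3 of 6 loop and distal tubule markers and 3 of 6 collecting duct markers fell. Of 6 tubule injury markers 2 rose, Krt20 by 2.35 and Sprr2f by a fitted 3.90. Sprr2f was well above background on no WT normal array, so its value is not a measured size. The part of these markers in the P450 changes was not tested.

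Cyp2a22 was at 0.81 and 0.79 in uninjured WT, 3.35 and 3.48 in uninjured KD, 1.57 and 1.99 in injured WT, and 2.67 and 1.71 in injured KD. The uninjured knockdown was the highest group, and after injury the genotypes overlapped. It rose 6.13-fold in KD normal (2.62 ± 0.29, adjusted p = 0.00594), by 2.54 and 2.69 within the slides. Cyp2a5, the coumarin hydroxylase that is known as an NRF2-responsive gene in mouse liver, was at 6.53 and 6.51 in WT normal and 7.39 and 7.31 in KD normal, and rose by 0.83 ± 0.21 (adjusted p = 0.0444). Its near copy Cyp2a4 was at 6.90 and 6.86 against 7.62 and 7.63, a change of 0.75 that did not pass (adjusted p = 0.104).

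Of the 4 sterol and bile acid genes, Cyp7b1 rose 2.18-fold (1.12 ± 0.11, adjusted p = 0.00436) and Cyp27a1 1.50-fold (0.58 ± 0.14, adjusted p = 0.0385). Cyp39a1 fell by 0.66 (adjusted p = 0.0344) and Cyp46a1, at -0.14, did not pass (adjusted p = 0.711). Cyp1a1 was at -4.61 and -4.56 in uninjured WT, -3.74 and -3.89 in uninjured KD, -4.50 and -4.76 in injured WT, and -3.87 and -3.47 in injured KD. The KD arrays lay above all WT arrays. It rose by 0.77 ± 0.20 without injury (adjusted p = 0.0471) and by 0.96 ± 0.20 with it (adjusted p = 0.0400), and it was the rise called in both genotype comparisons. The uninjured call was lost in 11 of 18 other settings, among them the slide as a block (adjusted p = 0.0528).

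Cyp26b1, which clears retinoic acid, was at 1.36 and 1.61 in uninjured WT, -0.67 and -1.44 in uninjured KD, 0.64 and 1.66 in injured WT, and 0.15 and 0.24 in injured KD. The uninjured knockdown was the lowest group. It fell 5.83-fold there (-2.54 ± 0.36, adjusted p = 0.00937), by 2.03 on slide 1 and 3.05 on slide 2, and its change after injury, -0.95, did not pass (adjusted p = 0.150). The other falls were Cyp2s1 (-0.94 ± 0.10, adjusted p = 0.00565), Cyp4a10 (-0.80), Cyp2u1 (-0.65), Cyp2j9 (-0.52) and Cyp2j6 (-0.48). Cyp24a1 was at -1.59 (95% interval -2.62 to -0.56, adjusted p = 0.0536) and did not pass. Of the Cyp2d genes none differed by more than 0.13, and for Cyp2d10 the 95% interval was -0.36 to 0.36.

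The number of P450 genes called here rests on single arrays. It was 0 without WT normal 2 (13 had an unadjusted limma p under 0.05), 3 without WT normal 1 and 7 without KD normal 2, and 16 at most. Without WT normal 2 Cyp2a22, Cyp7b1 and Cyp2s1 had an adjusted p of 0.0551, 0.0546 and 0.0579, and they kept their call in every other setting. With normexp correction Cyp2u1 was at 0.088.

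**Figure D4:**
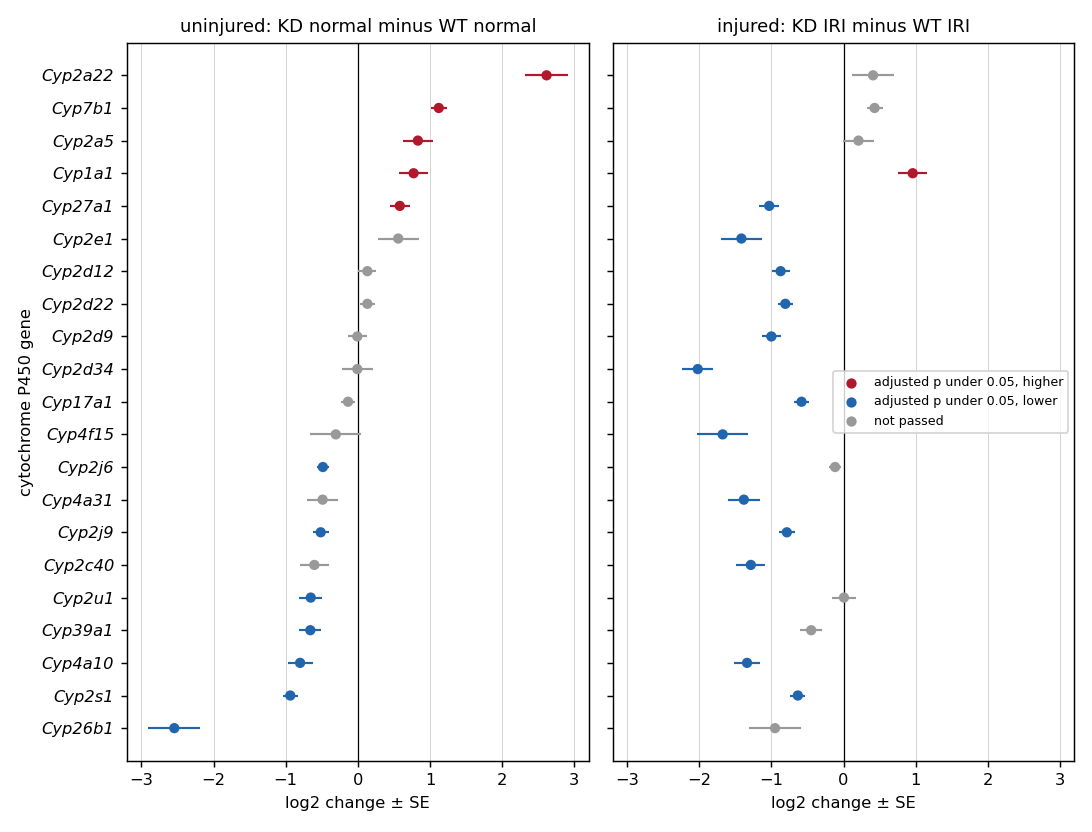
Difference between the knockdown and the wild type for the 21 P450 genes called without injury (left) or with it (right), as log2 change with SE as bars, ordered by the uninjured change; red and blue mark genes past the threshold and grey those that did not pass. Cyp2a22 leads the uninjured rises at 2.62 and Cyp2d34 the injured falls at -2.02.

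After injury, the knockdown was compared with the injured wild type. Of the 55 P450 genes 13 fell, 1 rose and 41 did not pass, or 25.5% called beside 6.93% of all genes. The falls are 23.6% of the P450 genes beside 3.31% of all genes, and the 1 rise, Cyp1a1, is 1.82% beside 3.62%. The median change was -0.45, with -0.52 and -0.34 within the slides, and -0.044 over all genes. All 14 called genes kept their sign on both slides, which the call nearly requires.

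The injured knockdown was lower in Cyp2d34 by 2.02 ± 0.22, or 4.06-fold (adjusted p = 0.00897), and in Cyp2d9 by 1.00 ± 0.13 (adjusted p = 0.0150), with Cyp2d12 and Cyp2d22 at -0.87 and -0.81. Cyp2d34 was at 1.17 and 0.97 in uninjured WT, 0.93 and 1.19 in uninjured KD, -1.42 and -1.94 in injured WT, and -3.49 and -3.91 in injured KD, so that the uninjured genotypes overlapped and the injured ones did not. Cyp2e1 fell by 1.42 ± 0.28 (adjusted p = 0.0345), Cyp2c40 by 1.28, Cyp27a1 by 1.03 and Cyp17a1 by 0.58. In family 4, Cyp4a31 and Cyp4a10 fell by 1.38 and 1.34, whereas Cyp4a14, at -2.27, did not pass (adjusted p = 0.131). Cyp4f15 was called lower, but it was not well above background in either group and no fold is given, and with the slide as a block it did not pass (adjusted p = 0.0511).

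Cyp2j9, Cyp2s1 and Cyp4a10 fell in the knockdown both without and with injury, which is 42.9% of the 7 uninjured falls and 23.1% of the 13 injured ones, and Cyp27a1 was called higher without injury and lower with it. These 2 comparisons share no arrays but use the same estimate of each gene's spread. For them, too, the share of all genes called in both was not computed. Cyp7b1 was at 0.43 after injury (adjusted p = 0.0645) and Cyp2a22 at 0.41 (adjusted p = 0.416). Of 12 proximal tubule markers 3 fell in the same comparison, with a median of -0.37 and summed levels between 149.056 and 193.506 in KD IRI beside 184.015 to 290.318 in WT IRI. Of 5 measured liver markers 2 fell, Alb and Ttr. The part of tubule or liver RNA in the P450 changes was not tested.

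This count, too, rests on the arrays used. With only the 4 arrays compared it was 0 (27 had an unadjusted limma p under 0.05), without KD IRI 2 it was 0 (24 unadjusted) and without KD IRI 1 it was 1, Cyp2d34. It was 6 without WT normal 1 or without WT normal 2. Cyp1a1 was at -0.44 with normexp correction (adjusted p = 0.715), which turns its direction.

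P450 enzymes of the endoplasmic reticulum take electrons from POR and cytochrome b5, and those of mitochondria from FDX1 and FDXR. Of 16 genes of electron supply and heme synthesis, all measured, 12 fell and 2 rose after injury in WT, where 25.4% and 20.5% of all genes did, and 10 fell and 1 rose in KD, where 32.1% and 27.3% of all genes did. Por fell by 0.80 in WT and 1.02 in KD, and Cyb5a by 1.47 and 1.69, while Fdx2 rose by 0.25 and 0.42. Between the genotypes 2 of 16 were called without injury, Pgrmc1 higher by 0.38 and Fdxr lower by 0.54, beside 14.9% of all genes. With injury 1 of 16 was called, Pgrmc1 again, by 0.54, beside 6.93% of all genes. None was called in the interaction. Alas1, the first enzyme of heme synthesis, was at 1.06 in KD normal against WT normal and did not pass (adjusted p = 0.123). Of the 3 measured epoxide hydrolases, which act on P450 products, Ephx2 fell by 1.52 in WT and by 2.37 in KD with injury. Ephx1 and Ephx3 did not pass in either.

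A list of 22 measured regulators of P450 genes held 21 transcription factors and Keap1. With injury 3 rose and 7 fell in WT, and 4 rose and 8 fell in KD, beside the shares of all genes just given. The rises in KD included Nr5a2, which passed the filter on dim probes only through KD IRI. Its rise is in part set by this choice, and its direction turned with normexp correction. The fatty acid receptor gene Ppara fell by 1.08 and 2.58, the vitamin D receptor gene Vdr by 0.93 and 1.29, and Hnf4a, a regulator of liver and tubule genes, by 0.96 and 1.70. Between the genotypes 2 of the 22 rose and 5 fell without injury, where 6.28% and 8.66% of all genes did. Nr0b2 and Nr5a2 were among these uninjured falls, and normexp correction turned the direction of each. For Nr5a2 no uninjured array gave a signal well above background, so the size of its fall was not measured. With injury 0 rose and 5 fell, where 3.62% and 3.31% of all genes did. Keap1 was among the falls in both. Cebpb had the largest uninjured change, to a higher level, from -1.18 and -0.84 in WT normal to 0.30 and 1.10 in KD normal. Vdr was lower in KD both without injury, by 0.69, and with it, by 1.05. The xenobiotic receptor gene Nr1i2 was likewise lower, by 0.61 and 0.62. The bile acid receptor gene Nr1h4 was lower in KD IRI by 1.29 (adjusted p = 0.0199). Ahr and Arnt, whose products act on Cyp1a1, were not called in either genotype comparison.

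Some P450 genes have symbols outside the pattern, and 5 of them were measured. Cyp4a12a, a fatty acid hydroxylase of male mouse kidney, was at 3.58 and 3.61 in uninjured WT, 5.44 and 5.77 in uninjured KD, 2.46 and 1.77 in injured WT, and 1.25 and 0.60 in injured KD. It rose by 2.01 ± 0.28 in the uninjured knockdown (adjusted p = 0.00912) and fell with injury by 1.48 in WT and 4.68 in KD. Its neighbour Cyp4a12b changed by 1.34, -1.32 and -3.95 in the same order. Cyp51, the sterol demethylase of cholesterol synthesis, fell with injury by 2.53 in WT and 2.98 in KD, and the prostacyclin synthase gene Ptgis rose by 0.77 and 0.99. The thromboxane synthase gene Tbxas1 fell by 1.05 in the uninjured knockdown.

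The remaining 21 P450 genes with a probe were not well above background on both arrays of any group. They were Cyp11a1, Cyp11b2, Cyp19a1 and Cyp21a1 of steroid synthesis, Cyp7a1 and Cyp8b1 of bile acid synthesis, and Cyp1a2, Cyp2a12, Cyp2ab1, Cyp2b23, Cyp2c38, Cyp2c39, Cyp2c54, Cyp2c65, Cyp2c66, Cyp2d13, Cyp2g1, Cyp2w1, Cyp3a16, Cyp3a25 and Cyp4a29. The filter kept genes through the group in which they were high, so the 55 are the measured genes and not the whole family, and 44 of them were well above background on all 8 arrays.

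Where 12 genes had more than 1 kept probe, the probes did not always give the same call. The second probe of Cyp2d22 changed by -0.43 with injury in WT (adjusted p = 0.0507), by -0.51 in KD IRI against WT IRI (0.0878) and by -0.21 in the interaction (0.573), and did not pass. The second probe of Cyp2c40 did not pass in KD IRI against WT IRI (-0.53), nor the third of Cyp4a10 in KD normal against WT normal (-0.76), whereas that of Cyp2j6 fell in KD with injury (-0.70). No gene had probes called in opposite directions. The values of close copies, such as Cyp2a4 and Cyp2a5, the Cyp2b genes, the Cyp2d genes and Cyp4a10 with Cyp4a31, may include signal from each other, and the probe sequences were not used here.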

How the data were processed

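Kidney RNA, 300 ng per array, carried Cy3 and was hybridised to 8 Agilent arrays, per the labels. Per the file headers, the authors deposited the spot intensity of each array as Agilent Feature Extraction 10.7.3.1 writes it, linear, corrected for background and spatial trend, on an array design of mm9. A series table also deposited by the authors gives log2 values. They matched the values used here once each probe was centred on its median (r between 0.999948 and 0.999974 over 40934 probes). Its column medians were between -0.136 and 0.160, and its scaling is not given in the sources used here.

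Control and outlier spots were dropped and replicate spots averaged. The log2 intensity was expressed against the 75th percentile of its array. Of 41174 probes, 27624 exceeded background on both arrays of a group. Names came from RefSeq accessions in a table of GRCm38.p6 (26690 probes matched), and the brightest probe stood for a gene; other probes were fitted in the same way, all probes together. Group means were fitted over all 8 arrays with limma 3.58.1 (lmFit, eBayes with trend) in R 4.3.3, with 4 residual and 2.91 prior degrees of freedom (median). Precision is limited by the number of arrays. The code was tested on simulated data.

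The text names 11 P450 genes listed for their role, the 6 largest rises and falls of each comparison, examples of each role and list, and Keap1. Other genes, such as Cyp2d10, were named after their values were seen. The gene family and all lists were chosen with earlier results of these data known. Nothing says that the arrays are separate animals, so the p-values reflect only the spread among these arrays, which may be technical. Replicate numbers coincide with slides.

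Alternatives were quantile normalization, normexp correction (offset 50, on median spot signals), the deposited table, no filter, detection on all 8 arrays, no trend, only the arrays compared, a slide or replicate block, the mean of all probes, and leaving out each array.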

Additional observations from a re-analysis of the deposited data

Results flagged for a closer look

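The injury response differed between the genotypes, by limma's interaction test with Benjamini-Hochberg adjustment, in 14 of the P450, partner and regulator genes examined. Called were 9 of 55 P450 genes, 2 of 5 outside the naming pattern and, of 22 regulators, 2 lower and 1 higher, beside 6.4% of all genes tested. None of 16 genes of electron supply and heme synthesis or 3 epoxide hydrolases was called. None of the 9 P450 calls held under every other setting. Among the P450 genes the response of KD minus that of WT was -7.20 in Cyp2b10, -2.21 in Cyp2a22, -2.01 in Cyp2d34, -1.97 in Cyp2e1, -1.61 in Cyp27a1, -1.004 in Cyp2d12, -0.99 in Cyp2d9, -0.94 in Cyp2d22 and -0.69 in Cyp7b1. The P450 genes outside the naming pattern gave -3.20 in Cyp4a12a (adjusted p = 0.0177) and -2.63 in Cyp4a12b (adjusted p = 0.00905). Of the regulators, Nr1h4 gave -1.52 (adjusted p = 0.0323), the retinoid partner receptor gene Rxra -0.40 (adjusted p = 0.0483) and Nr5a2 2.01 (adjusted p = 0.0409). The fitted values of Cyp2b10 and Nr5a2 are not measured sizes. Cyp2b10 was well above background on both arrays only in KD normal, and Nr5a2 only in KD IRI, and each passed the filter on dim probes through that group. The fitted value of Nr5a2 was -1.52 with normexp correction, so its direction depends on the background correction.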

How the results depend on the processing

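Leaving out single arrays gave 30 to 36 P450 genes called for injury in WT, 36 to 43 for injury in KD, 0 to 16 for KD normal against WT normal, 0 to 17 for KD IRI against WT IRI and 0 to 11 for the interaction. Without the filter on dim probes the count was 6 in place of 12 for KD normal against WT normal and 3 in place of 9 for the interaction, which was also 3 without the intensity trend. With only the 4 arrays compared it was 0 in place of 14 for KD IRI against WT IRI. The other settings kept each count within a factor of 1.5. Same-numbered arrays deviated together with correlations from 0.0218 to 0.262 across pairs of groups, 2 of 6 under 0.1, so the numbers were not taken as pairs; with the replicate block, which is also the slide block, the counts in the order above were 35, 43, 13, 16 and 8 in place of 35, 41, 12, 14 and 9. With normexp correction the median over all genes moved from -0.08 to 0.20 for injury in WT, from -0.03 to 0.15 and from -0.04 to -0.23 for the 2 genotype comparisons, from -0.09 to -0.35 for injury in KD and from -0.00 to -0.31 for the interaction. It reversed Cyp2u1 (0.088), Nr0b2 (0.089) and Nr5a2 (0.54) in KD normal against WT normal, Cyp1a1 in KD IRI against WT IRI (-0.44), Cyp2c55 (-0.77) and Nr5a2 (-0.67) for injury in KD, and Nr5a2 in the interaction (-1.52). The cause of these changes was not tested. Leaving out an array leaves 1 in its group, which is then assumed to vary like the other groups. Cyp2c55, Cyp3a13, Cyp2b10 and Cyp4f15 were not well above background in at least 1 group, so their folds there are bounds.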
